A study of Homo sapiens with 3 samples.

Results

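Kinesins are the motor proteins encoded by the KIF genes, and 42 of them were read on arrays of HEK293T, an established line of human embryonic kidney cells that carries the SV40 large T antigen. They are every gene whose symbol is KIF followed by a number and an optional letter A to C, or KIFC followed by a number, among 22395 genes named by a probe set that lists no other gene. Where a gene had several probe sets, the one with the highest average level stands for it. The cells stably carried TRAF7 G536S, wild-type TRAF7 or the empty pCDF1 vector, delivered by lentivirus and kept under puromycin in asynchronous growth. TRAF7 is a ubiquitin ligase, and the G536S change lies in its WD40 repeats. Each of the 3 groups has 1 array, and the labels do not say how many clones or cultures stand behind it, so no difference between groups has a replicate check or a test, and a difference between 2 arrays also holds that between the cultures, extractions and hybridisations.

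Kinesins walk along microtubules, or take them apart, by a motor domain that hydrolyses ATP. The mitotic kinesins build the spindle, move chromosomes and complete cytokinesis, and dividing cells make them mainly in G2 and M phase. The transport kinesins carry vesicles, mitochondria and protein complexes, and several of them are made mostly in neurons. The 42 genes were divided by these textbook roles into 14 mitotic kinesins, 17 transport kinesins and 11 ciliary and other kinesins.

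All values are levels on the authors' log2 RMA scale (RMA corrects background, normalizes arrays and summarises the probes of a set), or log2 differences between 2 arrays, and the level of one probe set is not comparable with that of another. TRAF7 itself read 7.35 in TRAF7 G536S cells, 8.11 in wild-type TRAF7 cells and 5.66 in empty vector cells. Of 9 measured embryonic kidney markers, EYA1, CDH2 and VIM lay at or above the 75th percentile of gene levels, whereas PAX8 and KRT8 lay below the median level and the other 4 between. Of 9 measured markers of leukocytes, endothelium and fibroblasts, COL1A1 and CD79A were above the median level, at no more than 2.60 and 1.48, and the defining marker PTPRC was at no more than 0.95. The arrays were not fully aligned by the authors' normalization. Among the 5599 genes at or above the 75th percentile (a mean of 2.87 or more), called well expressed here, the median difference was 0.12 for TRAF7 G536S minus empty vector, 0.10 for wild-type TRAF7 minus empty vector and 0.01 for TRAF7 G536S minus wild-type TRAF7, against -0.005, -0.001 and -0.003 over all genes. Quantile normalization set the first of these medians of well-expressed genes to -0.03 and cyclic loess to -0.01. Medians and counts of the mitotic and transport kinesins are therefore given after both scalings too.

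Many genes made in G2 and M phase carry a CCAAT box and a CHR element in their promoters, and the kinesin promoters were read for both. RefSeq promoters on GRCh38.p14, which run from 250 bases before to 50 bases after the start of transcription, were matched for 34 of the 42 genes, with the outermost start used where a gene has several. The CCAAT box is the binding site of NF-Y, and TTTGAA is a core of the CHR (cell cycle genes homology region) element through which the DREAM and MYB-MuvB complexes repress and then activate mitotic genes. Both were searched on both strands, so that CCAAT also counts as ATTGG and TTTGAA as TTCAAA, and matches of the pair overlapped in 0 of the 34 kinesin promoters and 15 of all promoters. CCAAT was found in 11 of 14 mitotic promoters (78.6%), 4 of 12 transport promoters (33.3%), 3 of 8 ciliary and other promoters and 36.0% of the 15308 promoters of all measured genes. TTTGAA was found in 10 of 14 mitotic promoters (71.4%), 1 of 12 transport promoters (8.33%), 0 of 8 ciliary and other promoters and 12.5% of all. The motifs stood together in 9 of 14 mitotic promoters, 1 of 12 transport promoters and 5.11% of all. In the 9 mitotic promoters a CCAAT lay upstream of a TTTGAA, at 24 bases in KIF4A and KIF4B, 25 in KIF11, 23 in KIF14, 34 in KIF18B, 35 in KIF18A, 50 in KIFC1, 9 in KIF23 and 122 in KIF20B, counted between first bases. KIF4B is an intronless copy of KIF4A, so the equal spacing of that pair is not independent. In KIF5B, the transport kinesin with both, TTTGAA lay upstream of CCAAT.

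Bases just before the start of transcription are printed 5′ to 3′ on the strand of the gene for 5 mitotic kinesins that were higher in TRAF7 G536S cells than in empty vector cells by 0.32 or more on the log2 scale. KIF14, with both motifs and a difference of 0.38, also passes this level and is not printed. Capitals mark matches to CCAAT or to TTTGAA on either strand. The KIF20B stretch is chr10:89701450-89701589 (plus strand), and both of its TTTGAA matches lie downstream of it. The others are chrX:70290004-70290103 (plus strand) for KIF4A, chr11:28108157-28108256 (minus strand) for KIF18A, chr10:92593030-92593129 (plus strand) for KIF11 and chr15:69414249-69414348 (plus strand) for KIF23.
KIF20B: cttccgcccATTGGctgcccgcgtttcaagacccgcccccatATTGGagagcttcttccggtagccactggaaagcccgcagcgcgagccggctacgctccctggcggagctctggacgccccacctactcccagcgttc
KIF4A: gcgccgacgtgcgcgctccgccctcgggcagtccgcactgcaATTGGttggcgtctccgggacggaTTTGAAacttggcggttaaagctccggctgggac
KIF18A: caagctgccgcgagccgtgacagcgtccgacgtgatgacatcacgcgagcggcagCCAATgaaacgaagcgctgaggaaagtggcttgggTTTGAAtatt
KIF11: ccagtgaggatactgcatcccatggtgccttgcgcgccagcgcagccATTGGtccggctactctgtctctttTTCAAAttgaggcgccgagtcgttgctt
KIF23: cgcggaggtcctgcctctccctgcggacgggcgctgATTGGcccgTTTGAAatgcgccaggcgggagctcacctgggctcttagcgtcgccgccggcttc

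The next stretches are shown for contrast. KIF18B is not printed, although it holds both motifs and its TRAF7 G536S minus empty vector difference was -0.27. KIF22, chr16:29790651-29790750 (plus strand), was the mitotic kinesin with the lowest TRAF7 G536S minus empty vector difference and holds CCAAT without TTTGAA. Its stretch does hold ttcgaa, and spellings of the CHR core other than TTTGAA were not searched for, so a CHR element in KIF22 is not excluded. KIF2C, chr1:44739737-44739836 (plus strand), holds neither motif in its whole window, though its difference of 0.34 is also above 0.32.
KIF22: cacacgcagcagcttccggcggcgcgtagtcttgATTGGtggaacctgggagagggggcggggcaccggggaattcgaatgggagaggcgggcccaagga
KIF2C: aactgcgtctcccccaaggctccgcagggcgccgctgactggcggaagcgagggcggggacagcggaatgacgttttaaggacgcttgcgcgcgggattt

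The stretches of KIF5C, chr2:148875127-148875226 (plus strand), and KIF1A, chr2:240821404-240821503 (minus strand), belong to the transport kinesins with the largest differences.
KIF5C: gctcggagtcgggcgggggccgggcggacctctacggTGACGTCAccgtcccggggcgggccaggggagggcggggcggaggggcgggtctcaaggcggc
KIF1A: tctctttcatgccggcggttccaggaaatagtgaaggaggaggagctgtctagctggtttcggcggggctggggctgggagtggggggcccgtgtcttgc
The KIF1A window holds neither motif, and the only CCAAT match of KIF5C lies farther upstream, at -222. The capitals in KIF5C mark TGACGTCA, the full cyclic AMP response element, which was searched for after this promoter had been read. It occurs in 2 of the 34 kinesin promoters, KIF5C at -63 and KIF15 at -122, and in 2.52% of all promoters. A match describes the letters of the window and not a used site.

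**Figure D1:**
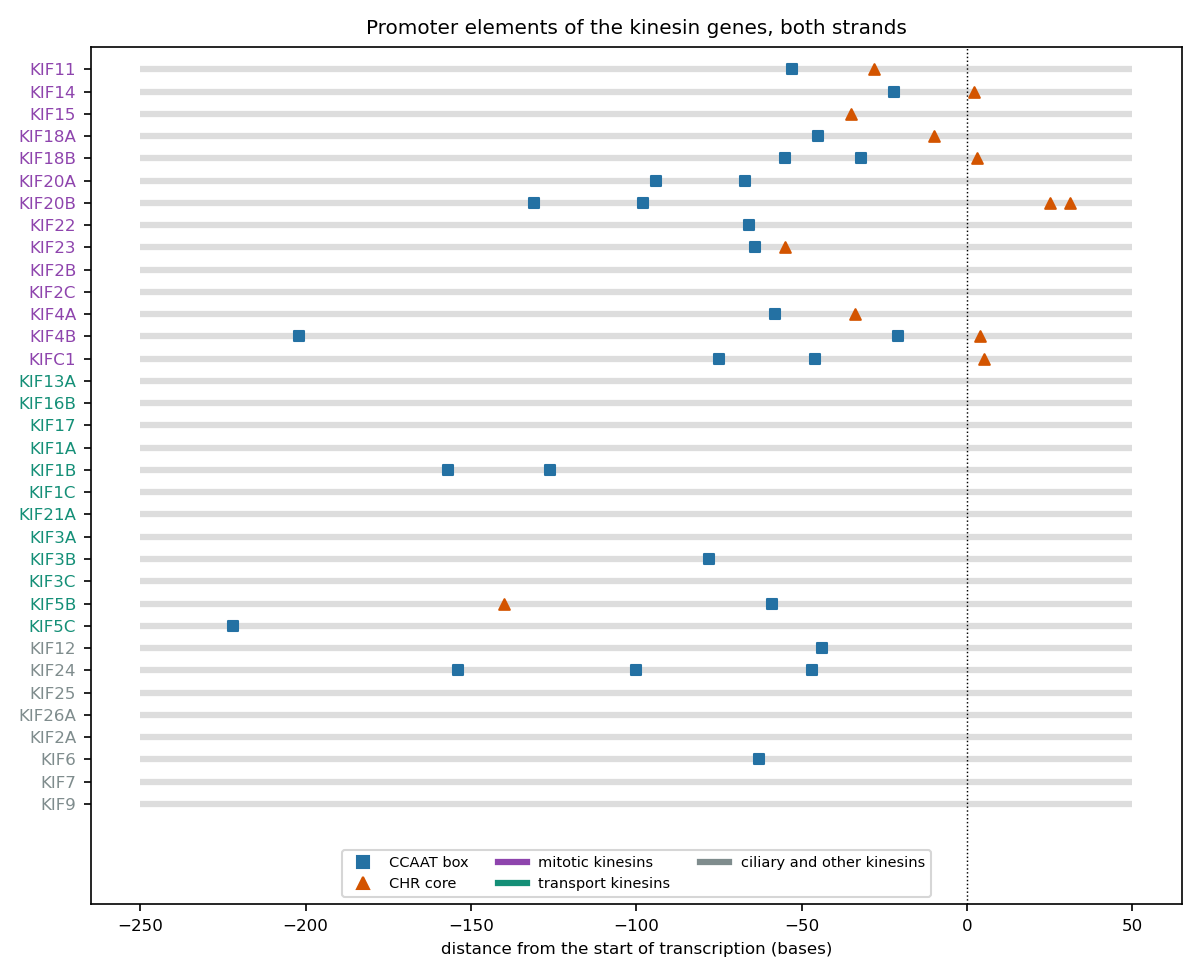
Positions of CCAAT (squares) and TTTGAA (triangles, the CHR core) on either strand, in bases from the start of transcription, for the 34 kinesin promoters matched in RefSeq, 1 line per gene and gene names coloured by class. Both symbols stand on 9 of 14 mitotic lines, with the square left of a triangle each time, and on 1 of 12 transport lines.

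Most mitotic kinesins were higher in TRAF7 G536S cells than in empty vector cells, by less than 1.5-fold except in KIF20B. The median difference of the 14 genes was 0.33, against -0.005 over all genes and 0.12 over well-expressed genes, where 13 of the 14 lie. Of the 14 genes, 11 were above 0, against 48.7% of all genes and 65.6% of well-expressed genes. Higher by 0.32 or more, a second and lower level used beside 1.5-fold, were 7 of 14, against 11.0% of all genes and 24.6% of well-expressed genes, and 1 of 14 was lower by as much, against 4.67% of all genes. The median became 0.19 under quantile normalization and 0.20 under cyclic loess, with 9 of 14 above 0 in each. Of the 5599 well-expressed genes, 3673 were above 0 as deposited, 2555 under quantile normalization and 2698 under cyclic loess. After quantile normalization the 7 and 1 became 3 and 2, and after cyclic loess 4 and 2, while the counts of well-expressed genes, 1379 higher and 514 lower, became 662 and 977, and 741 and 911. In wild-type TRAF7 cells the median difference from empty vector was 0.11, 9 of 14 were above 0 (49.8% of all genes, 64.0% of well-expressed genes), 2 were higher by 0.32 or more (9.95% and 20.9%) and 0 lower by as much (4.08% of all genes). After either scaling that median was 0.01, with 7 of 14 above 0, 1 higher by 0.32 or more and 1 lower by as much. Of the 5599 well-expressed genes, 3581 were above 0 with wild-type TRAF7 as deposited, 2595 under quantile normalization and 2675 under cyclic loess. Both comparisons share the empty vector array. The listed partners of the mitotic kinesins, which follow the cell cycle too, had medians of 0.24 with TRAF7 G536S and 0.03 with wild-type TRAF7 as deposited. Their part in the result was not tested, and in bulk RNA more cells in G2 and M phase cannot be told apart from more RNA per cell.

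The spindle motors come first. KIF11, the plus-end motor that pushes the spindle poles apart, read 7.14 in TRAF7 G536S cells, 6.96 in wild-type TRAF7 cells and 6.69 in empty vector cells. Its difference from empty vector was 0.46 (1.38-fold) with TRAF7 G536S and 0.28 (1.21-fold) with wild-type TRAF7. KIF15, which can maintain spindle poles when KIF11 is blocked, read 3.57 in TRAF7 G536S cells, 3.78 in wild-type TRAF7 cells and 3.72 in empty vector cells, a TRAF7 G536S minus empty vector difference of -0.15. KIFC1, a minus-end motor that focuses spindle poles, read 3.81 in TRAF7 G536S cells, 3.65 in wild-type TRAF7 cells and 3.69 in empty vector cells, and its difference of 0.11 with TRAF7 G536S turned to -0.04 and -0.02 after quantile normalization and cyclic loess. The highest KIF11 value was thus in the TRAF7 G536S array, and KIF15 and KIFC1 stayed within 0.21 across the arrays.

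Among the motors that act at chromosomes and microtubule ends, KIF18A, which shortens kinetochore microtubules and steadies chromosomes at the spindle equator, read 4.54 in TRAF7 G536S cells, 4.31 in wild-type TRAF7 cells and 4.05 in empty vector cells. That is 0.49 (1.40-fold) with TRAF7 G536S and 0.26 with wild-type TRAF7. KIF18B, its relative at the ends of astral microtubules, lay the other way, at 6.03 in TRAF7 G536S cells, 6.03 in wild-type TRAF7 cells and 6.30 in empty vector cells, 0.27 below empty vector in both. KIF2C (MCAK), which strips tubulin from microtubule ends and corrects kinetochore attachments, read 4.75 in TRAF7 G536S cells, 4.31 in wild-type TRAF7 cells and 4.41 in empty vector cells. KIF2C was thus higher in the TRAF7 G536S array than in both others, by 0.44 (1.36-fold) over wild-type TRAF7 and 0.34 (1.27-fold) over empty vector. Its relative KIF2B was near background, at 0.86 in TRAF7 G536S cells, 0.92 in wild-type TRAF7 cells and 0.71 in empty vector cells.

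The chromokinesins KIF4A and KIF22 bind chromosome arms and push them from the poles, and they lay on opposite sides of empty vector with both constructs. KIF4A, which also works with PRC1 on the central spindle, read 5.96 in TRAF7 G536S cells, 6.01 in wild-type TRAF7 cells and 5.46 in empty vector cells. Its difference from empty vector was 0.50 (1.42-fold) with TRAF7 G536S and 0.55 (1.47-fold) with wild-type TRAF7, and it had the highest wild-type TRAF7 minus empty vector difference of the 14. KIF4B, the copy of KIF4A, read 3.13 in TRAF7 G536S cells, 2.78 in wild-type TRAF7 cells and 2.82 in empty vector cells (0.31 with TRAF7 G536S and -0.04 with wild-type TRAF7 against empty vector). The pair is nearly identical in sequence, and which of the pair these probes read was not tested. KIF22 read 5.68 in TRAF7 G536S cells, 5.96 in wild-type TRAF7 cells and 6.13 in empty vector cells, a difference of -0.45 with TRAF7 G536S, 1.37-fold lower, and -0.18 with wild-type TRAF7. The TRAF7 G536S value became -0.59 after quantile normalization, which is 1.5-fold lower.

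The cytokinesis motors were led by KIF20B, also called MPHOSPH1, which acts in the late steps of cell separation. It read 5.77 in TRAF7 G536S cells, 5.40 in wild-type TRAF7 cells and 5.07 in empty vector cells, so the 3 arrays stood apart by 0.33 or more. The difference from empty vector was 0.70 (1.63-fold) with TRAF7 G536S and 0.33 (1.26-fold) with wild-type TRAF7. Quantile normalization made the TRAF7 G536S value 0.56 and cyclic loess 0.57, just under 1.5-fold. KIF20A, its relative that brings the chromosomal passenger complex to the central spindle, read 6.84 in TRAF7 G536S cells, 6.95 in wild-type TRAF7 cells and 6.79 in empty vector cells, and its TRAF7 G536S difference of 0.05 turned negative after both scalings. KIF23, the motor of centralspindlin, read 6.16 in TRAF7 G536S cells, 5.92 in wild-type TRAF7 cells and 5.79 in empty vector cells, a difference of 0.37 with TRAF7 G536S and 0.13 with wild-type TRAF7. KIF14, which places citron kinase at the midbody, read 6.21 in TRAF7 G536S cells, 5.92 in wild-type TRAF7 cells and 5.83 in empty vector cells, with a TRAF7 G536S difference of 0.38, and its wild-type TRAF7 difference of 0.09 turned negative after both scalings. KIF23 and KIF14 were highest in the TRAF7 G536S array and differed by no more than 0.13 between the other arrays.

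**Figure D2:**
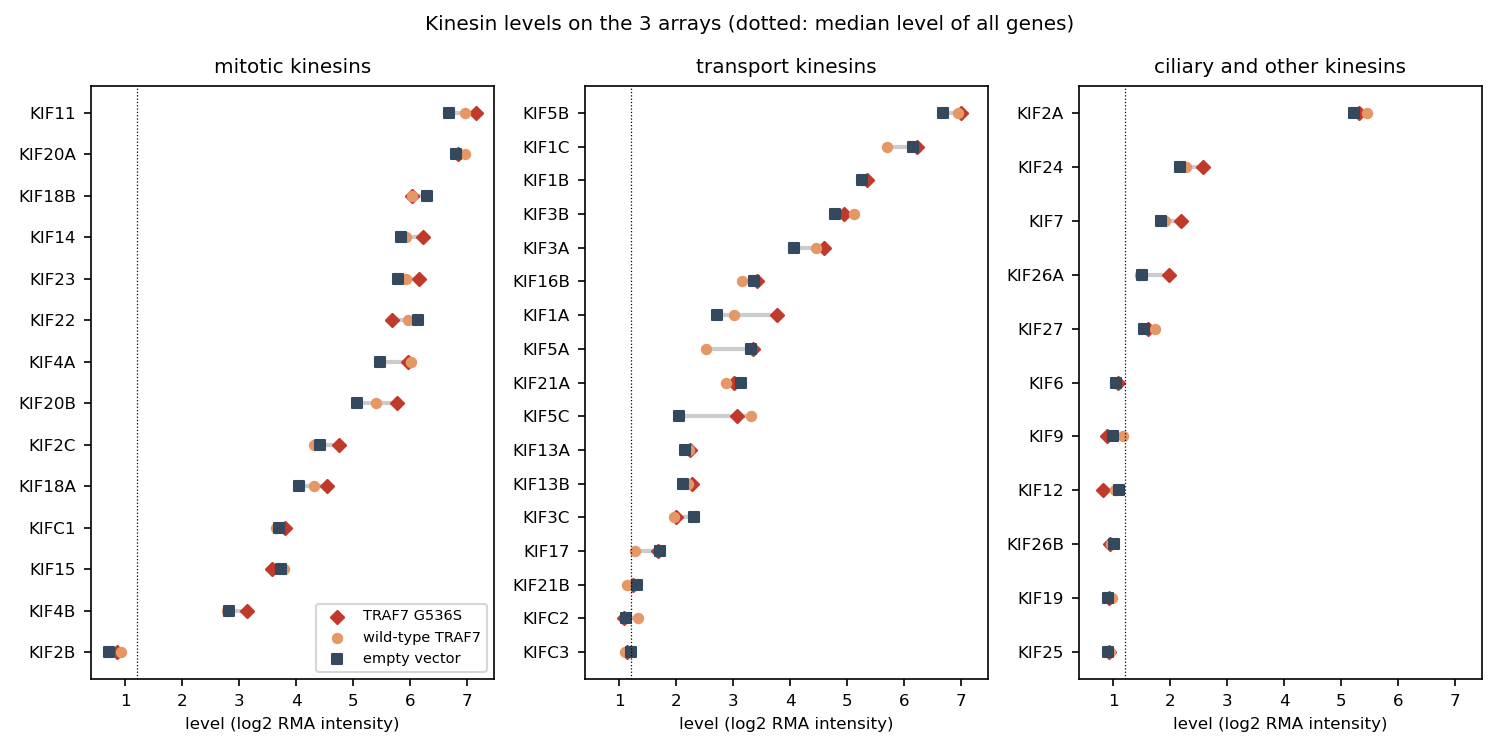
Level of each kinesin on the log2 RMA scale in TRAF7 G536S (diamonds), wild-type TRAF7 (circles) and empty vector cells (squares), 1 array each, with genes of a class ordered by mean and a dotted line at the median level of all genes. The widest gaps are those of KIF5C (2.04 in empty vector cells), KIF1A (3.76 in TRAF7 G536S cells) and KIF5A (2.51 in wild-type TRAF7 cells).

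The transport kinesins held the largest single differences and no common shift from empty vector. Their median difference was 0.06 with TRAF7 G536S and -0.005 with wild-type TRAF7 against empty vector. Above 0 were 11 of 17 with TRAF7 G536S, against 48.7% of all genes and 63.9% of genes at or above the median level. With wild-type TRAF7 8 of 17 were above 0, against 49.8% and 62.6%. At or above the median level lay 15 of the 17. Quantile normalization brought the TRAF7 G536S median to -0.07 with 5 of 17 above 0, and cyclic loess to -0.04 with 6 of 17 above 0. The wild-type TRAF7 median was brought to -0.09 and -0.08 by the same scalings, with 6 of 17 above 0 in each. Of the 5599 well-expressed genes, these scalings left 2555 and 2698 above 0 with TRAF7 G536S. With wild-type TRAF7 they left 2595 and 2675. With TRAF7 G536S 3 of 17 were higher than empty vector by 0.32 or more (11.0% of all genes, 24.6% of well-expressed genes). Lower by as much were 0 (4.67% of all genes). With wild-type TRAF7 3 were higher (9.95% and 20.9%) and 4 lower (4.08% of all genes). After either scaling the TRAF7 G536S counts became 3 and 1, and the wild-type TRAF7 counts 1 and 6. At the 1.5-fold level 3 of all 42 kinesins were higher with TRAF7 G536S (KIF1A, KIF5C and KIF20B, against 3.05% of all genes) and 0 lower (1.07%), and with wild-type TRAF7 1 was higher (KIF5C, against 2.73%) and 1 lower (KIF5A, against 0.911%). The median of the mitotic kinesins minus that of the transport kinesins was 0.27 with TRAF7 G536S and 0.12 with wild-type TRAF7. Quantile normalization made these 0.26 with TRAF7 G536S and 0.10 with wild-type TRAF7, and cyclic loess 0.24 with TRAF7 G536S and 0.09 with wild-type TRAF7.

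Kinesin-1, the conventional motor, has 3 heavy chain genes, and each had its own pattern. KIF5C, a heavy chain made mainly in neurons, read 3.07 in TRAF7 G536S cells, 3.31 in wild-type TRAF7 cells and 2.04 in empty vector cells. Its difference from empty vector was 1.03 (2.04-fold) with TRAF7 G536S and 1.27 (2.41-fold) with wild-type TRAF7, and the empty vector array alone was low. KIF5A, the other neuronal heavy chain, read 3.34 in TRAF7 G536S cells, 2.51 in wild-type TRAF7 cells and 3.31 in empty vector cells. Here the wild-type TRAF7 array alone was low, by 0.79 (1.73-fold) against empty vector, and the TRAF7 G536S array exceeded it by 0.83 (1.78-fold). KIF5B, the heavy chain of most tissues, read 6.99 in TRAF7 G536S cells, 6.94 in wild-type TRAF7 cells and 6.68 in empty vector cells, differences of 0.31 with TRAF7 G536S and 0.26 with wild-type TRAF7.

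Kinesin-3 motors carry vesicles over long distances. KIF1A, which moves synaptic vesicle precursors in neurons, read 3.76 in TRAF7 G536S cells, 3.01 in wild-type TRAF7 cells and 2.72 in empty vector cells. The TRAF7 G536S array was high, by 1.04 (2.06-fold) over empty vector and by 0.76 (1.69-fold) over wild-type TRAF7, and the wild-type TRAF7 array exceeded empty vector by 0.28. KIF1C, which carries integrin-containing and dense core vesicles, read 6.21 in TRAF7 G536S cells, 5.70 in wild-type TRAF7 cells and 6.16 in empty vector cells, with the wild-type TRAF7 array low by 0.46 against empty vector (1.37-fold). KIF1B, a carrier of mitochondria and vesicles, read 5.35 in TRAF7 G536S cells, 5.25 in wild-type TRAF7 cells and 5.25 in empty vector cells and differed little, with either sign depending on the scaling. KIF16B, which moves early endosomes, read 3.41 in TRAF7 G536S cells, 3.15 in wild-type TRAF7 cells and 3.36 in empty vector cells, and KIF13A and KIF13B stayed within 0.15 across the arrays.

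Kinesin-2 works as a heterotrimer of KIF3A with KIF3B or KIF3C and the adaptor KIFAP3, and builds cilia. KIF3A read 4.59 in TRAF7 G536S cells, 4.46 in wild-type TRAF7 cells and 4.07 in empty vector cells, a difference of 0.52 (1.44-fold) with TRAF7 G536S and 0.39 (1.31-fold) with wild-type TRAF7. KIF3B read 4.94 in TRAF7 G536S cells, 5.12 in wild-type TRAF7 cells and 4.78 in empty vector cells, 0.15 above empty vector with TRAF7 G536S and 0.34 with wild-type TRAF7. KIF3C, the neuronal alternative to KIF3B, read 2.0 in TRAF7 G536S cells, 1.95 in wild-type TRAF7 cells and 2.31 in empty vector cells, a difference of -0.31 with TRAF7 G536S and -0.35 with wild-type TRAF7. As deposited, KIF3A and KIF3B were thus above empty vector with both constructs, and the alternative partner KIF3C was below it with both. The KIF3B difference with TRAF7 G536S shrank to 0.02 after quantile normalization and after cyclic loess. KIFAP3 read 4.87 in TRAF7 G536S cells, 4.81 in wild-type TRAF7 cells and 4.66 in empty vector cells. KIF17, a homodimeric kinesin-2, read 1.68 in TRAF7 G536S cells, 1.28 in wild-type TRAF7 cells and 1.71 in empty vector cells, low in the wild-type TRAF7 array (-0.43 against empty vector).

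The remaining transport kinesins were KIF21A and KIF21B, which pause at microtubule ends, and the minus-end motors KIFC2 and KIFC3. KIF21A read 3.01 in TRAF7 G536S cells, 2.87 in wild-type TRAF7 cells and 3.13 in empty vector cells, and KIF21B, KIFC2 and KIFC3 were between 1.08 and 1.32 on all 3 arrays, close to the median level of all genes, 1.21.

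**Figure D3:**
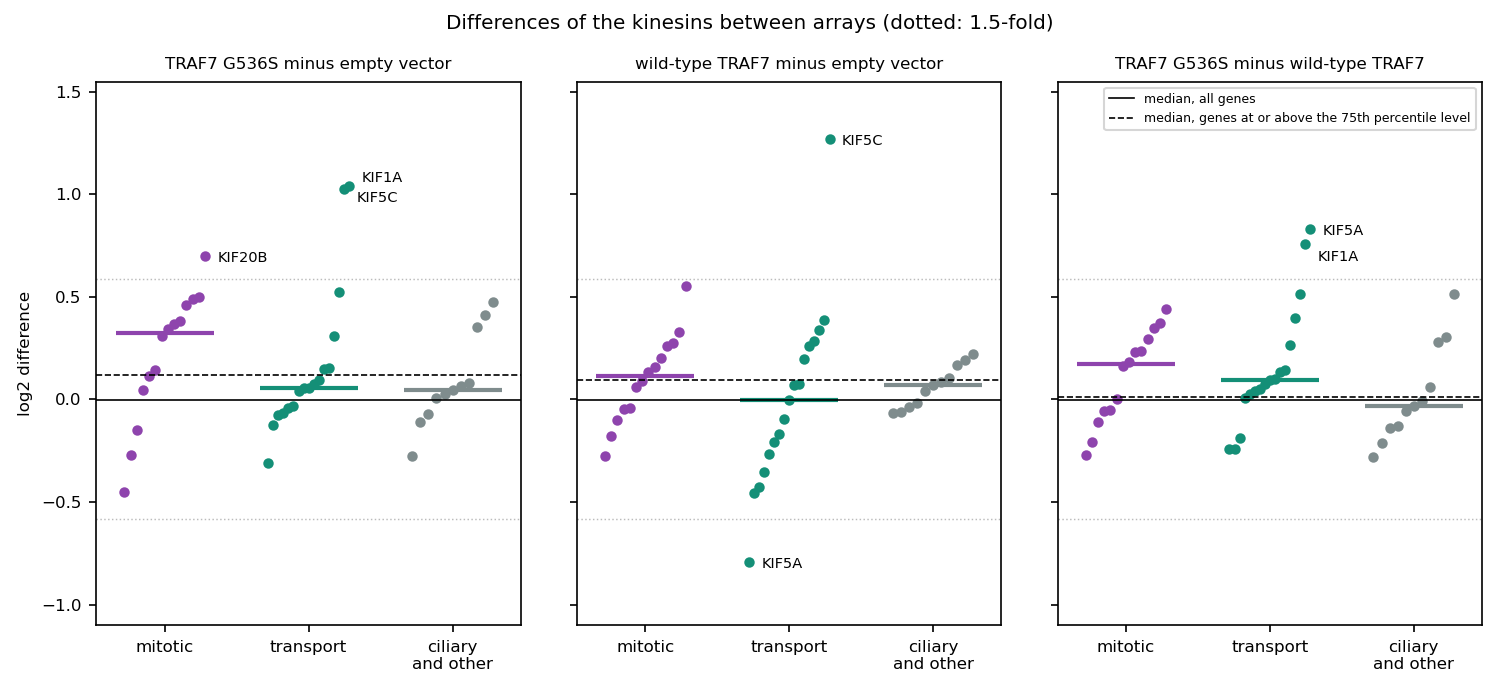
Log2 differences of the 14 mitotic, 17 transport and 11 ciliary and other kinesins, 1 point per gene, in the 3 comparisons, with a coloured bar at each class median, black lines at the medians of all genes (solid) and of well-expressed genes (dashed), and dotted lines at 1.5-fold. The mitotic bar stands at 0.33, 0.11 and 0.17 from left to right, and KIF5C, KIF1A, KIF5A and KIF20B are the genes past a dotted line.

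Between the constructs, a comparison that leaves the empty vector array out, kinesins were more often higher than lower in TRAF7 G536S cells. Of all 42, 27 were above 0, against 48.8% of all genes and 52.3% of well-expressed genes. At least 1.5-fold higher were KIF5A and KIF1A, 2 of 42 against 1.11% of all genes, and 0 were 1.5-fold lower, against 0.929%. Higher by 0.32 or more were 8 of 42 (KIF5A, KIF1A, KIF1C, KIF26A, KIF2C, KIF17, KIF20B and KIF4B), against 5.46% of all genes and 10.7% of well-expressed genes, and 0 were lower by as much, against 4.71% of all genes. KIF1C differed by 0.51, KIF26A by 0.51 and KIF17 by 0.40. The mitotic median was 0.17 with 9 of 14 above 0, and the transport median was 0.10 with 14 of 17 above 0, so the classes lay 0.08 apart. With quantile normalization the mitotic median was 0.14 with 8 of 14 above 0 and the transport median 0.07 with 12 of 17. With cyclic loess they were 0.15 with 8 of 14 and 0.07 with 13 of 17. Of the 5599 well-expressed genes, 2648 were above 0 with quantile normalization and 2713 with cyclic loess. For KIF5A, KIF1C and KIF17 the wild-type TRAF7 array was the low one, and for KIF1A, KIF26A and KIF2C the TRAF7 G536S array was the high one. TRAF7 itself was 1.69-fold lower in the TRAF7 G536S array than in the wild-type TRAF7 array. In this comparison the G536S change and the level of TRAF7 RNA therefore cannot be told apart.

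Of the ciliary and other kinesins, 5 of 11 lay above the median level. KIF2A, a depolymerase of spindle poles and of neurons, read 5.30 in TRAF7 G536S cells, 5.44 in wild-type TRAF7 cells and 5.22 in empty vector cells. Its difference from empty vector was 0.08 with TRAF7 G536S and 0.22 with wild-type TRAF7. The former became -0.06 after quantile normalization and -0.05 after cyclic loess. Its role at spindle poles would also allow the mitotic class, and the mitotic medians and counts were not recomputed with KIF2A included. KIF24, a kinesin-13 that restrains cilium formation, read 2.58 in TRAF7 G536S cells, 2.27 in wild-type TRAF7 cells and 2.17 in empty vector cells, and KIF7, the ciliary regulator of Hedgehog signalling, read 2.19 in TRAF7 G536S cells, 1.91 in wild-type TRAF7 cells and 1.84 in empty vector cells. KIF26A, which lacks ATPase activity, read 1.98 in TRAF7 G536S cells, 1.46 in wild-type TRAF7 cells and 1.5 in empty vector cells. These last 3 were highest in the TRAF7 G536S array, by 0.41, 0.35 and 0.48 over empty vector, and all 3 lie below the 75th percentile of gene levels. KIF27 read 1.60 in TRAF7 G536S cells, 1.73 in wild-type TRAF7 cells and 1.53 in empty vector cells, and KIF6, KIF9, KIF12, KIF19, KIF25 and KIF26B were at 1.17 or less on every array. The median of the class was 0.04 with TRAF7 G536S and 0.07 with wild-type TRAF7 against empty vector. Over all 42 kinesins the medians as deposited were 0.08 with TRAF7 G536S and 0.07 with wild-type TRAF7. Above 0 were 30 genes with TRAF7 G536S (48.7% of all genes and 65.6% of well-expressed genes) and 24 with wild-type TRAF7 (49.8% and 64.0%). These counts hold for the deposited values only, since 11 signs with TRAF7 G536S and 8 with wild-type TRAF7 depended on the scaling. With TRAF7 G536S, quantile normalization turned KIF13A, KIF13B, KIF16B, KIF1B, KIF1C, KIF20A, KIF27, KIF2A, KIF5A and KIFC1 negative, and no kinesin turned positive. Of the 42 kinesins 23 were well expressed.

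**Figure D4:**
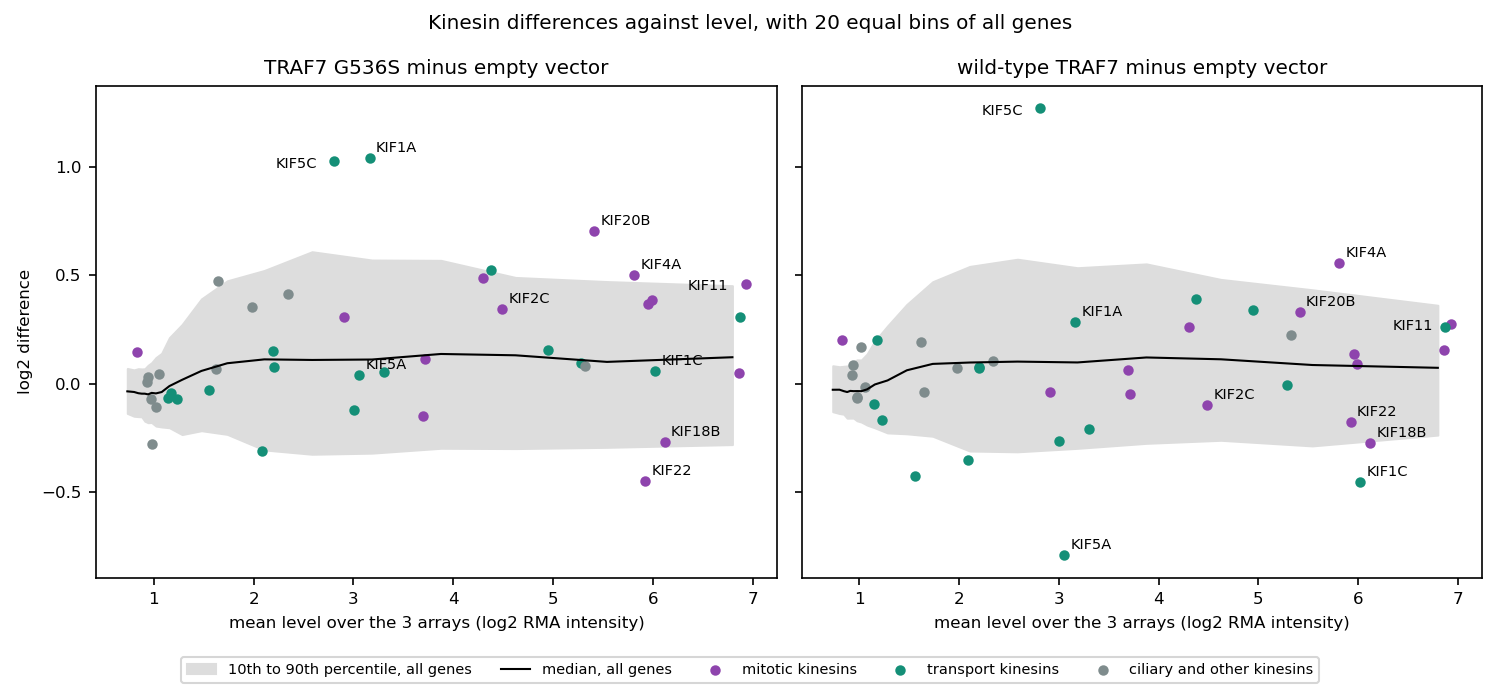
Log2 difference from empty vector of each kinesin against its mean level, with the median (line) and the 10th to 90th percentile (grey band) of all genes in 20 equal bins of level. KIF5C and KIF1A (left), KIF5C and KIF5A (right) stand far outside the band, while 9 of 14 mitotic kinesins lie inside it and 4 above it in the left panel, and 11 inside it and 2 above it in the right panel.

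The 8 listed partners and kinesins with other symbols had a median difference from empty vector of 0.17 with TRAF7 G536S and 0.13 with wild-type TRAF7. Light chains tie the kinesin-1 heavy chains to cargo. KLC1 read 5.64 in TRAF7 G536S cells, 5.62 in wild-type TRAF7 cells and 5.50 in empty vector cells. KLC2 read 5.48 in TRAF7 G536S cells, 5.31 in wild-type TRAF7 cells and 5.81 in empty vector cells, lower than empty vector by 0.33 with TRAF7 G536S and 0.50 with wild-type TRAF7. KLC3, a light chain known from testis, read 2.37 in TRAF7 G536S cells, 1.67 in wild-type TRAF7 cells and 1.41 in empty vector cells, the TRAF7 G536S array being high by 0.96 (1.95-fold) over empty vector, and KLC4 read 1.47 in TRAF7 G536S cells, 1.46 in wild-type TRAF7 cells and 1.17 in empty vector cells. CENPE, the kinetochore kinesin that carries another symbol, read 5.97 in TRAF7 G536S cells, 5.63 in wild-type TRAF7 cells and 5.35 in empty vector cells, 0.62 (1.54-fold) above empty vector for TRAF7 G536S and 0.28 for wild-type TRAF7, so it resembled KIF20B in the order of its arrays. STARD9, a kinesin of the centrosome, read 2.42 in TRAF7 G536S cells, 2.65 in wild-type TRAF7 cells and 2.88 in empty vector cells, the opposite order.

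Of 18 listed cargo adaptors 15 were measured, with a median difference of 0.11 for TRAF7 G536S and -0.004 for wild-type TRAF7 against empty vector. At least 1.5-fold higher with TRAF7 G536S were 2, MAPK8IP2 and RHOT1 (3.05% of all genes), and 1 was lower, MAPK8IP3 (1.07% of all genes). MAPK8IP3 (JIP3), a scaffold that links kinesin-1 and dynein to JNK kinases and vesicles, read 3.21 in TRAF7 G536S cells, 3.66 in wild-type TRAF7 cells and 4.37 in empty vector cells, a difference of -1.16 (2.24-fold lower) with TRAF7 G536S and -0.71 with wild-type TRAF7. MAPK8IP2 (JIP2), a related scaffold, read 2.43 in TRAF7 G536S cells, 1.56 in wild-type TRAF7 cells and 1.68 in empty vector cells, high in the TRAF7 G536S array by 0.75. RHOT1 (Miro1), which anchors motors to mitochondria, read 4.42 in TRAF7 G536S cells, 4.18 in wild-type TRAF7 cells and 3.79 in empty vector cells, 0.63 above empty vector with TRAF7 G536S and 0.39 with wild-type TRAF7, whereas its relative RHOT2 read 3.13 in TRAF7 G536S cells, 3.37 in wild-type TRAF7 cells and 3.60 in empty vector cells.

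Dynein and dynactin drive the opposite direction of travel, and 17 of 20 listed subunits were measured. Their medians were 0.08 with TRAF7 G536S and 0.12 with wild-type TRAF7 against empty vector. The light chain DYNLT1 was the only subunit 1.5-fold apart in any of the 3 comparisons, at 3.80 in TRAF7 G536S cells, 3.88 in wild-type TRAF7 cells and 3.18 in empty vector cells. The heavy chain DYNC1H1 read 7.51 in TRAF7 G536S cells, 7.53 in wild-type TRAF7 cells and 7.41 in empty vector cells.

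All 18 listed partners of the mitotic kinesins were measured and none was 1.5-fold apart in any comparison. Their median difference from empty vector as deposited was 0.24 with TRAF7 G536S and 0.03 with wild-type TRAF7, against 0.12 and 0.10 over well-expressed genes. With TRAF7 G536S the median of well-expressed genes fell to -0.03 under quantile normalization and -0.01 under cyclic loess. The partner medians were not recomputed under these scalings. Above 0 were 13 of 18 with TRAF7 G536S and 10 of 18 with wild-type TRAF7, near the 65.6% and 64.0% of well-expressed genes, among which 15 of the 18 lie (48.7% and 49.8% of all genes). TPX2, which targets KIF11 and KIF15 to the spindle, read 8.13 in TRAF7 G536S cells, 7.88 in wild-type TRAF7 cells and 7.72 in empty vector cells. PRC1, the partner of KIF4A, read 6.71 in TRAF7 G536S cells, 6.65 in wild-type TRAF7 cells and 6.51 in empty vector cells, and RACGAP1, the partner of KIF23, read 1.90 in TRAF7 G536S cells, 1.58 in wild-type TRAF7 cells and 1.65 in empty vector cells. Of the chromosomal passenger complex, which KIF20A carries, INCENP read 5.34 in TRAF7 G536S cells, 5.56 in wild-type TRAF7 cells and 5.81 in empty vector cells. That order is opposite to that of TPX2. The other subunits were mixed, with TRAF7 G536S minus empty vector differences of -0.21 in AURKB, -0.07 in BIRC5 and 0.27 in CDCA8. Of 12 listed regulators of mitotic transcription 11 were measured, and none was 1.5-fold apart. The median difference of these regulators from empty vector was 0.01 with TRAF7 G536S and 0.09 with wild-type TRAF7. FOXM1, a factor of mitotic genes, read 7.01 in TRAF7 G536S cells, 6.85 in wild-type TRAF7 cells and 6.98 in empty vector cells. MYBL2, the MYB factor of MYB-MuvB, read 7.67 in TRAF7 G536S cells, 7.66 in wild-type TRAF7 cells and 7.72 in empty vector cells, and NFYA, the DNA-binding subunit of NF-Y, read 6.04 in TRAF7 G536S cells, 6.09 in wild-type TRAF7 cells and 5.79 in empty vector cells.

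**Figure D5:**
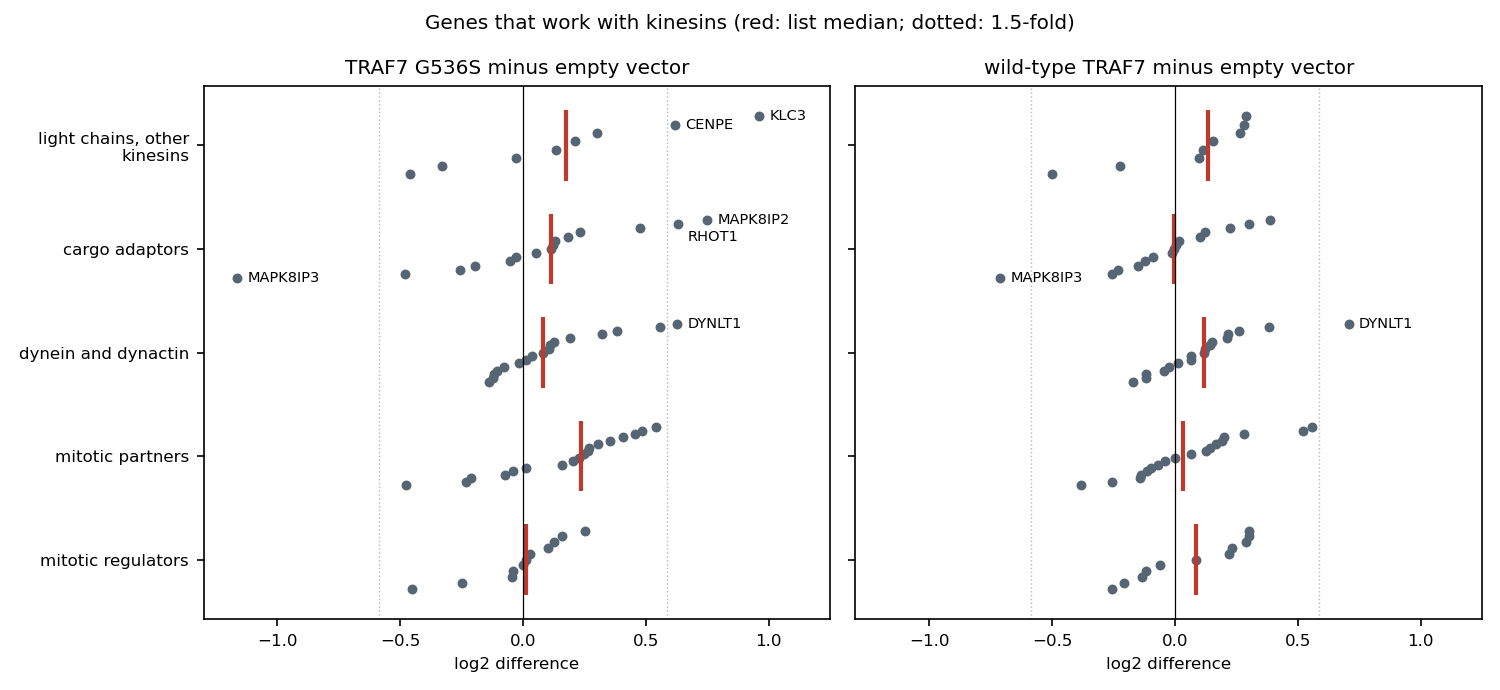
Log2 difference from empty vector of the measured genes of 5 lists that work with kinesins, 1 point per gene, with the list median in red and dotted lines at 1.5-fold. MAPK8IP3 lies lowest, at -1.16 with TRAF7 G536S and -0.71 with wild-type TRAF7, and KLC3 highest, at 0.96 with TRAF7 G536S.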

How the data were processed

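The deposited table holds log2 intensities of 53617 probe sets on 3 arrays, which the authors made with RMA (background correction, normalization between arrays and summary per probe set), per the submitters' processing notes. The log base was inferred from the highest value, 12.57. The sources used here name neither a software version nor a genome build. The platform annotation names 1 gene for 23871 probe sets and several for 1842, and 27904 are unnamed here. Symbols were updated through the Entrez ID (22569 matched). The probe set with the highest mean stood for each of 22395 genes, with no filter on low values. Differences were taken between arrays. A gene counted as called at 1.5-fold, with a log2 difference of 0.32 as a second level, and the shares over all genes and over genes at or above the 75th percentile of level are the background. With 1 array per group there is no test.

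Members, classes and lists were chosen with earlier results of these data known. Named genes are the kinesins 1.5-fold apart, the 6 mitotic and 6 transport kinesins with the highest mean, and every other kinesin by its values. TRAF7, direct partners, and list members 1.5-fold apart above the median level (1.21) are named too. INCENP, AURKB, BIRC5, CDCA8, RHOT2, DYNC1H1, FOXM1, MYBL2, NFYA and STARD9 were added after their values were seen. Other settings tried were averaging all probe sets of a gene, filters at the median and the 75th percentile, a floor at the 25th percentile (0.86), quantile normalization, centring on the median and cyclic loess. The quantile and loess scalings ran in limma 3.58.1 (R 4.3.3), and all other steps ran in Python 3.11.15, numpy 2.4.6, pandas 2.3.3 and scipy 1.17.1, with matplotlib 3.10.9. Counting code was checked against simulated differences. The number of arrays limits the precision. Promoters came from RefSeq (GRCh38.p14).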

Additional observations from a re-analysis of the deposited data

How the results depend on the processing

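The 15 medians and counts were recomputed under 7 other settings. Of 105 values, 98 stayed within 0.1 (medians) or 1.5 times (counts) of the reported ones and 7 moved further. This count does not measure robustness, because several settings could hardly change a value. Averaging probe sets alters only KIFC1 among the kinesins, and centring shifts every difference of a comparison equally. The limit of 0.1 also exceeds some of the medians. The wild-type TRAF7 transport median stayed within it while going from -0.005 to -0.09 under quantile normalization. The mitotic median for TRAF7 G536S minus empty vector was 0.33 as deposited, 0.19 with quantile normalization and 0.20 with cyclic loess, and for wild-type TRAF7 minus empty vector it was 0.0079 and 0.0063, against 0.11. Both scalings lower the upper part of the TRAF7 arrays relative to the empty vector array. The transport median for TRAF7 G536S minus empty vector was -0.0685 after quantile normalization, against 0.06. Quantile normalization also brought 1 kinesin, KIF22, to 1.5-fold lower with TRAF7 G536S, against 0 as deposited, and the filter at the 75th percentile left 0 kinesins 1.5-fold higher with wild-type TRAF7, against 1, since it drops KIF5C. Without KIF4B, left out after the data were seen, the mitotic median with TRAF7 G536S was 0.34. The sign of a single kinesin depended on the scaling for 11 of 42 genes in TRAF7 G536S minus empty vector, 8 in wild-type TRAF7 minus empty vector and 3 in TRAF7 G536S minus wild-type TRAF7. Of the 42 kinesins 33 lay above the median level, and the other 9 were near background. No paired analysis was possible because each group has 1 array. For the same reason no array could be left out in turn.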

Other observations

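Mitotic kinesins with both CCAAT and TTTGAA in the promoter window stood higher with TRAF7 G536S than those without the pair, a split made after the values were seen and given as a description. The 9 genes with both had a median TRAF7 G536S minus empty vector difference of 0.38, from -0.27 (KIF18B) to 0.70 (KIF20B), with 8 above 0, and the 5 without (KIF15, KIF20A, KIF22, KIF2B and KIF2C) a median of 0.05, from -0.45 to 0.34, with 3 above 0. For TRAF7 G536S minus wild-type TRAF7 the medians were 0.23 and -0.11, beside 0.05 and 0.005 among well-expressed genes with a promoter. For wild-type TRAF7 minus empty vector they were only 0.13 and 0.06, beside 0.13 and 0.09 among those genes. All these medians are of the deposited values, and the split was not repeated after the other scalings. KIF2B, counted without the pair, was near background. The split rests on the spelling TTTGAA alone, and KIF22, counted without the pair, holds ttcgaa in its printed stretch. Among genes at or above the 75th percentile of level with a promoter, the TRAF7 G536S minus empty vector median was 0.18 for 219 genes with both motifs and 0.11 for 4432 without, and over all genes with a promoter it was 0.0039 for 782 with both motifs and 0.0044 for 14526 without. A smaller gap in the same direction was thus seen among genes at or above the 75th percentile, and none over all genes. The set of all genes also holds those near background.

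KIFC1 was the only kinesin with several probe sets. Of its 4, a pair held equal values on every array, another read 3.53 in TRAF7 G536S cells, 3.38 in wild-type TRAF7 cells and 3.38 in empty vector cells, and the last was near background at 0.81, 0.74 and 0.71. Their TRAF7 G536S minus empty vector differences ran between 0.09 and 0.15.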
